A study of Homo sapiens with 12 samples.

Results

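The inflammasome caspases and NOD receptors described here are 9 genes of innate immune sensing, CASP1, CASP4, CASP5, NOD1, NOD2, NLRP1, PYCARD, IL18 and GSDMD, out of 38478 genes in the deposited matrix. They were chosen by name, and CASP1 was picked because it rose strongly with lenalidomide in these same data, so each of its differences that uses the DMSO or lenalidomide samples is given as a description without a test. All 9 were found in the matrix. Of these, 4 (CASP1, CASP4, NOD1 and NLRP1) reached a mean of 0.5 RPKM (reads per kilobase of gene, scaled to 1000000 reads on genes) and were tested among 11241 genes, and the other 5 had fewer than 3 reads in every sample.

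The samples were OPM-1 cells, a single human multiple myeloma (MM) cell line grown in culture. For 48 h they received the solvent DMSO alone, lenalidomide (LEN) at 0.1 μM, the RUNX inhibitor AI-10-104 at 1 μM, or both drugs at those doses (LEN+AI-10-104). Each of the 4 conditions has 3 replicates, 12 samples in all, and poly(A) RNA was sequenced. LEN directs the ubiquitin ligase receptor cereblon to the transcription factors IKZF1 and IKZF3, which are then degraded, and AI-10-104 keeps RUNX proteins from their partner CBFβ; the comparisons ask what LEN does to the transcripts without and with RUNX inhibition.

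Inflammasomes are cytosolic complexes in which a sensor such as NLRP1, often through the adaptor ASC (encoded by PYCARD), brings caspase-1 molecules together so that they cleave themselves. Active caspase-1 cuts the precursor of interleukin-18 into its active form and cuts gasdermin D (GSDMD), whose freed fragment forms pores in the plasma membrane. Caspase-4 and caspase-5 bind bacterial lipopolysaccharide in the cytosol and also cut gasdermin D. NOD1 and NOD2 recognise fragments of bacterial peptidoglycan and signal through the kinase RIPK2 to NF-κB. Macrophages and epithelial cells are the best known settings of these complexes, and plasma cells and MM cells are not.

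The libraries held between 16352548 and 31386210 reads on genes. The condition medians were 30219883 for DMSO, 28795905 for LEN, 23153105 for AI-10-104 and 19417027 for LEN+AI-10-104, so the median was lowest with both drugs. LEN replicate 1, at 19442512 reads, was shallower than LEN+AI-10-104 replicate 3, at 20419807. The transcripts were those of a plasma cell line. Of 10 plasma cell markers, 9 averaged 0.5 RPKM or more, and their summed level was 4497 to 4750 RPKM in DMSO, 4381 to 4533 RPKM in LEN, 4915 to 5164 RPKM in AI-10-104 and 4270 to 4505 RPKM in LEN+AI-10-104. None of 10 monocyte or macrophage markers had a mean of 0.5 RPKM or more over the 12 samples, the most abundant being CD68 at a mean of 0.433 RPKM and up to 0.749 RPKM in a sample. Their summed level was 0.346 to 0.879 RPKM in DMSO, 0.595 to 0.635 RPKM in LEN, 0.460 to 0.581 RPKM in AI-10-104 and 0.621 to 1.08 RPKM in LEN+AI-10-104. FCGR3A, S100A8, S100A9 and FCN1 are listed at 0 reads in every sample. Such zeros are not read as a lack of the transcript, for the reason given with GSDMD below. None of the 5 T cell markers matched had such a mean either, and CD3E had the highest at 0.327 RPKM, with up to 0.551 RPKM in a sample. In these bulk samples, fewer cells that express a gene and less RNA per cell cannot be told apart.

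The members CASP1, CASP4, CASP5 and IL18 lie on chromosome 11 (coordinates are GRCh38, GENCODE 44), and the caspase genes are neighbours on the minus strand. CASP4 is at chr11:104942866-104969366, CASP5 at chr11:104994235-105023168 and CASP1 at chr11:105025397-105035250, next to CARD16 at chr11:105041326-105101431. IL18 is at chr11:112143253-112164096, also on the minus strand. NOD1 is at chr7:30424527-30478784 (minus), NOD2 at chr16:50693588-50733077 (plus), PYCARD at chr16:31201486-31203450 (minus) and NLRP1 at chr17:5499415-5619424 (minus). Each value is a total for a gene, and the parts of the gene that were counted are not given in the sources used here. CASP1, CASP4, CASP5 and CARD16 are close paralogs, so reads shared between them could have been assigned to either gene or dropped, and their values are uncertain to that extent.

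The letters before the start sites are shown for NOD1, NOD2 and CASP5, to set a receptor that was measured above the floor beside its relative listed at 0, and a caspase gene at 1 read or none beside its neighbours with more reads. RefSeq windows of 300 bases around the start site (assembly GRCh38.p14) were found for 5 members, and the 250 bases before the start are printed 5′ to 3′ on the strand of the gene. No window was found for CASP1, IL18 and NLRP1, and that of GSDMD was not used here. Capitals mark 3 motifs searched on both strands in the whole window: the interferon-stimulated response element core (GAAA, any pair of bases, GAAA), the gamma-activated sequence core TTCNNNGAA and the RUNX site TGTGGT.
NOD1, chr7:30478785-30479034, minus strand: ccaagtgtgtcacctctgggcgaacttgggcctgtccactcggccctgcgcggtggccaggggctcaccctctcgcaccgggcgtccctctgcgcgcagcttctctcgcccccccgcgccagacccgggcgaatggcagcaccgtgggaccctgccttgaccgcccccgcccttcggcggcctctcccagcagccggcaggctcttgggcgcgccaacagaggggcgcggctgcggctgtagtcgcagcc
NOD2, chr16:50696698-50696947, plus strand: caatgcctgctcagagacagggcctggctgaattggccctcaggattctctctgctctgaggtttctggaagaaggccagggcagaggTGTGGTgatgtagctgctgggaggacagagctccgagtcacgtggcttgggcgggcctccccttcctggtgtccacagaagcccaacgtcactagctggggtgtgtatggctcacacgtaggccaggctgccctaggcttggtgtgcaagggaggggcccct
CASP5, chr11:105023169-105023418, minus strand: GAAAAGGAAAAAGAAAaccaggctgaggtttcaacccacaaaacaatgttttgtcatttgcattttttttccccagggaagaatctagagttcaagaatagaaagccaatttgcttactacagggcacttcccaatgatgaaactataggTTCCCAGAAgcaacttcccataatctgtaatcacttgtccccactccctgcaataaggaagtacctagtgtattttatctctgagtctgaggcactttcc

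The 300-base window of NOD1 was 74.7% G or C with 32 CpG dinucleotides, against medians of 58.7% and 14 over all 35116 windows. NOD2, which is listed at 0, had 2 windows: the one printed was 60.7% G or C with 6 CpG, and the other, at chr16:50699130-50699429, was 49.3% with 5 CpG and held no motif. Both RefSeq starts lie inside the gene as GENCODE draws it. PYCARD, listed with at most 1 read, had 72.0% G or C and 23 CpG, while CASP4, with at least 364 reads in every sample, had 39.7% and 3 CpG. Whether base composition follows the levels cannot be read from so few windows, and the PYCARD value is given only as listed. The window of CASP5 had 42.3% G or C and no CpG. It held 2 overlapping matches of the interferon-stimulated response element core, starting 250 and 244 bases before the start site, and 1 TTCNNNGAA match starting 100 bases before it. The CASP4 window, identical to that of CASP5 at 212 of 278 aligned bases (76.3%), held none of the motifs. The only TGTGGT among the member windows was in NOD2, 162 bases before its start. The interferon-stimulated response element core was present in 3.57% of all windows, TTCNNNGAA in 7.66% and TGTGGT in 13.1%, and the matches are descriptions of the letters only.

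Among the caspases, CASP1 was at 0.920 to 1.49 RPKM in the samples without LEN and at 1.96 to 3.06 RPKM wherever LEN was present. CASP1 in DMSO was 1.26, 1.38 and 1.24 RPKM, from 75 to 118 reads per sample. With LEN it was 3.06, 2.28 and 2.88 RPKM, from 169 to 235 reads. All 3 LEN samples were above all 3 DMSO samples, and the difference in log2(RPKM + 0.1), the scale of every fold change here, was 1.02 (SE 0.18, 95% confidence interval 0.63 to 1.41), the value for which the gene was picked. In AI-10-104 the values were 1.49, 0.920 and 0.929 RPKM, 1 sample above the range of DMSO and 2 below it. With both drugs they were 2.78, 1.96 and 2.21 RPKM, from 91 to 153 reads. All 6 samples with LEN were above all 6 without it, as for 2.25% of the genes tested. This split includes the DMSO and LEN samples behind the pick, so the share does not test CASP1.

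**Figure D1:**
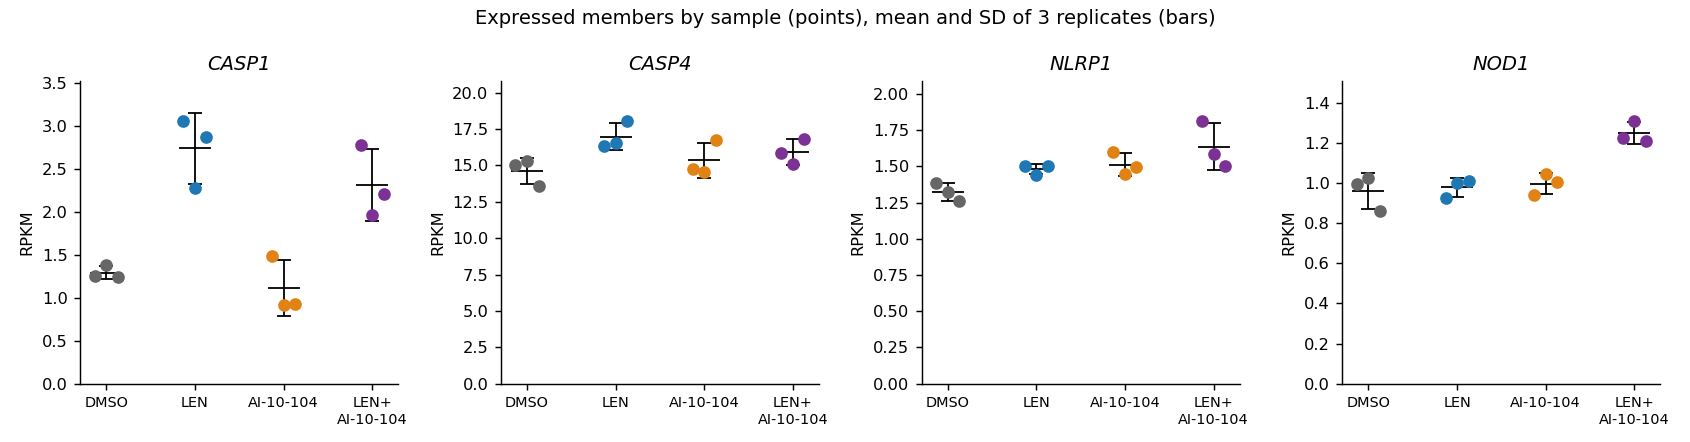
RPKM (y axis, from 0) of CASP1, CASP4, NLRP1 and NOD1 in each sample (points) of the 4 conditions, with the mean and SD of 3 replicates (bars). CASP1 sits at 0.920 to 1.49 RPKM in the 6 samples without LEN and at 1.96 to 3.06 RPKM in the 6 with it, while NOD1 stands apart in LEN+AI-10-104 at 1.21 to 1.31 RPKM.

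The difference between LEN+AI-10-104 and AI-10-104 uses 6 samples that did not enter the value for which CASP1 was picked. Its SE, confidence interval and adjusted p also rest on the spread within DMSO and LEN, because all 12 samples were fitted together. CASP1 rose in it by a log2 fold change of 1.01 (SE 0.18, 95% confidence interval 0.63 to 1.40, adjusted p = 0.0063), a 2.02-fold difference, from a mean of 1.11 ± 0.324 to 2.32 ± 0.418 RPKM (SD, n = 3 each; limma, Benjamini-Hochberg adjustment over all 11241 genes). A gene was called, here and below, when its adjusted p did not exceed 0.05 and its log2 fold change was 0.32 or more in either direction. Its groups did not overlap, as for 19.0% of the genes tested in this direction. CASP1 was the 1 member called of 4 tested in this comparison, in which 3.63% of all genes tested were called and 3.16% were called as higher. Its call was kept when each sample was left out in turn (log2 fold change 0.88 to 1.22, adjusted p 0.0028 to 0.031) and in the other 11 alternatives (adjusted p 0.00028 to 0.038), in which the log2 fold change ran from 0.65, with a pseudocount of 1, to 1.11. Among these alternatives is a fit of the compared conditions only, which leaves the DMSO and LEN samples out of the spread.

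The other differences of CASP1 share the DMSO or the LEN samples with the value that picked it and are given without a test. AI-10-104 against DMSO gave a log2 fold change of -0.23 (95% confidence interval -0.62 to 0.16). LEN+AI-10-104 against LEN gave -0.24 (95% confidence interval -0.62 to 0.15), and LEN+AI-10-104 against DMSO gave 0.78 (95% confidence interval 0.40 to 1.17). The change with LEN was 1.02 without AI-10-104 and 1.01 with it, a difference of -0.01 with a 95% confidence interval of -0.55 to 0.54. This difference changed sign with the samples used, from -0.14 to 0.20 with 1 sample left out.

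CASP4 was the most abundant member, at a mean of 15.7 RPKM over all samples, above 65.3% of the genes tested. CASP1 at 1.86 RPKM was above 19.7% of them, NLRP1 at 1.49 RPKM above 16.5% and NOD1 at 1.05 RPKM above 11.3%. These levels depend on the gene lengths deposited, which differ from the exon bases of GENCODE 44: 1477 against 6665 for CASP4, 2837 against 3965 for CASP1, 6099 against 20157 for NLRP1 and 6060 against 6820 for NOD1. Differences between conditions of 1 gene do not depend on its length except through the pseudocount and the minimum level tested. CASP4 was 15.0, 15.3 and 13.6 RPKM in DMSO and 16.3, 16.5 and 18.1 RPKM in LEN. These groups did not overlap, as for 9.42% of the genes tested in this direction, and the log2 fold change of 0.21 (95% confidence interval 0.07 to 0.36, adjusted p = 0.20) did not pass the test. In AI-10-104 CASP4 was 14.8, 14.5 and 16.7 RPKM, and with both drugs it was 15.8, 15.1 and 16.8 RPKM. Both ranges overlapped that of DMSO. LEN+AI-10-104 against AI-10-104 gave 0.05 (95% confidence interval -0.09 to 0.20, adjusted p = 0.61), an interval whose upper end is below the lower end of that for CASP1.

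CASP5 had 1 read in DMSO replicate 3, 1 read in LEN+AI-10-104 replicate 2 and none in the other 10 samples. The floor, the 3 reads up to which no value is interpreted, corresponds to 0.0430 RPKM of CASP5 in the deepest library and 0.0825 RPKM in the shallowest. CASP5 was at or below 1 read in every condition, also in the LEN samples in which CASP1 was high.

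**Figure D2:**
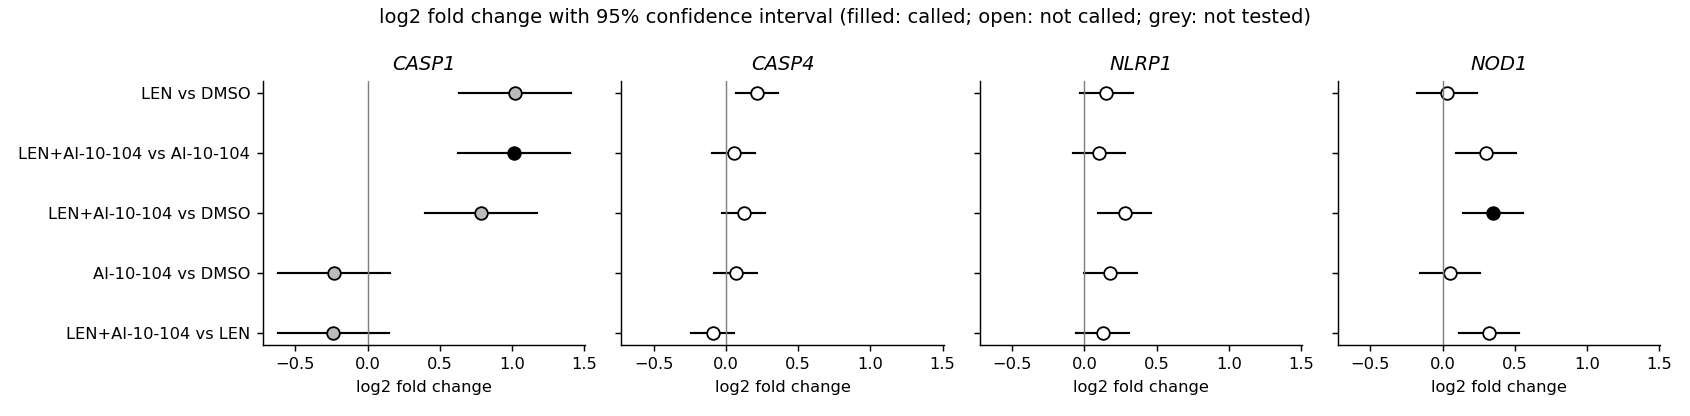
log2 fold change (x axis) of the 4 expressed members in 5 comparisons between conditions (rows), with 95% confidence intervals from limma; filled points were called, open points were not and grey points were not tested. Calls are CASP1 in LEN+AI-10-104 vs AI-10-104 (1.01) and NOD1 in LEN+AI-10-104 vs DMSO (0.35).

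Of the NOD receptors, NOD1 was measured at a low level and NOD2 is listed at 0 in every sample. NOD1 was 0.994, 1.03 and 0.860 RPKM in DMSO, 0.925, 1.00 and 1.01 RPKM in LEN and 0.942, 1.05 and 1.00 RPKM in AI-10-104, so the conditions with 1 drug or none overlapped. With both drugs it was 1.22, 1.31 and 1.21 RPKM, above each of the other 9 samples, as for 5.2% of the genes tested. Each value rested on 109 to 189 reads. The condition in which NOD1 stood apart was also the one with the lowest median depth, and the part of depth in this was not tested.

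NOD1 rose in LEN+AI-10-104 against DMSO by a log2 fold change of 0.35 (SE 0.09, 95% confidence interval 0.14 to 0.56, adjusted p = 0.042). It was the 1 member called of the 3 other than CASP1, in a comparison in which 2.94% of all genes were called and 2.3% were called as higher. Leaving out 1 sample ended the call in 11 of 12 cases (adjusted p up to 0.14), and it was kept only without AI-10-104 replicate 2. It was also lost in 5 of 11 other alternatives: with a pseudocount of 1 (log2 fold change 0.20), with any value above 0 tested, with median-ratio rescaling or quantile normalization and with the compared conditions only. Against AI-10-104 the log2 fold change was 0.30 (adjusted p = 0.053) and against LEN it was 0.32 (adjusted p = 0.079), neither called. LEN alone gave 0.03 (adjusted p = 0.97) and AI-10-104 alone 0.05 (adjusted p = 0.79), and these small values turned negative without DMSO replicate 3. The interaction of the drugs, the change with LEN in the presence of AI-10-104 minus that in its absence, was 0.27 (95% confidence interval -0.02 to 0.56, adjusted p = 0.37), so the data do not show that the drugs together did more than their separate changes added up.

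NOD2 is listed at 0 in all 12 samples, which is not read as a lack of the transcript, for the reason given with GSDMD. The kinase RIPK2, through which both receptors signal, had a mean of 3.44 RPKM.

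NLRP1, a sensor of proteases and other disturbances of the cytosol, was 1.38, 1.32 and 1.26 RPKM in DMSO. It was 1.50, 1.44 and 1.50 RPKM in LEN, 1.60, 1.44 and 1.49 RPKM in AI-10-104 and 1.82, 1.58 and 1.50 RPKM with both drugs. All 9 treated samples were above all 3 DMSO samples, as for 1.41% of the genes tested, but no comparison passed the test. The log2 fold change against DMSO was 0.15 with LEN (adjusted p = 0.58), 0.18 with AI-10-104 (adjusted p = 0.24) and 0.28 with both (95% confidence interval 0.10 to 0.46, adjusted p = 0.060). The levels with 1 drug and with both overlapped, and the interaction was -0.05 (95% confidence interval -0.31 to 0.21, adjusted p = 0.87).

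PYCARD, whose product ASC links many sensors to caspase-1, had 1 read in each of 4 samples (LEN replicate 3, AI-10-104 replicate 3 and LEN+AI-10-104 replicates 1 and 3) and none in the other 8. Its floor was 0.124 RPKM in the deepest library and 0.237 RPKM in the shallowest. The samples in which CASP1 was high showed no PYCARD above the floor either.

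The substrates of caspase-1 among the members were also under the floor. IL18 had 2 reads in DMSO replicate 2 and none elsewhere, with a floor of 0.0818 to 0.157 RPKM. IL18 also overlaps a gene on the opposite strand, and the strand setting of the counting is not given in the sources used here. GSDMD (chr8:143553207-143563062, plus strand) is listed at 0 in all 12 samples, and this value is not read as a lack of the transcript. Of 8 protein-coding genes within 100 kb of GSDMD that could be matched, 4 are also listed at 0 in every sample. EEF1D, which encodes a subunit of a translation elongation factor that dividing cells use, had at most 1 read there, while ZC3H3 had up to 550 reads (both named after their values were seen). Since a gene that every dividing cell uses is at or near 0 here, the members at or near 0 are given as listed.

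**Figure D3:**
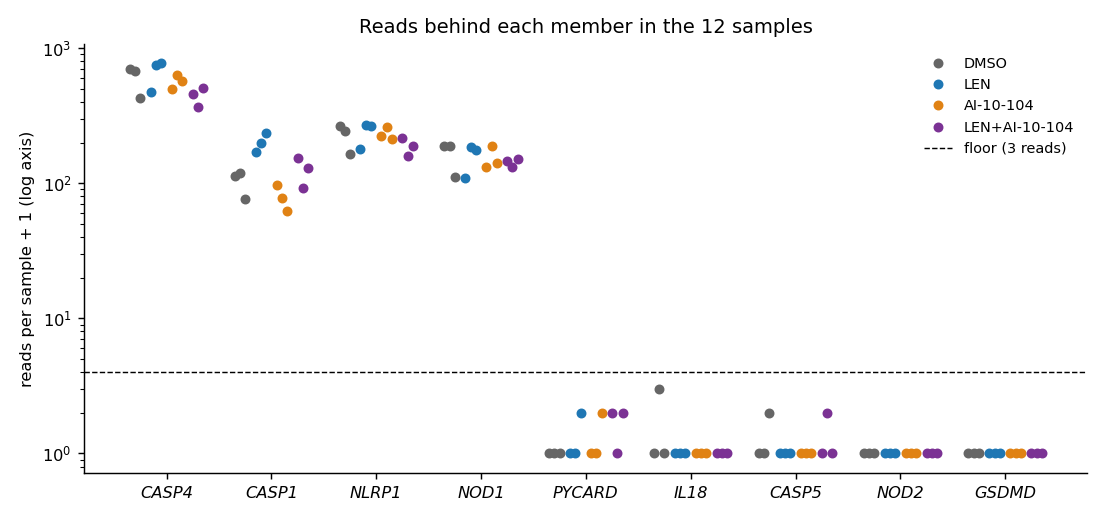
Reads behind each of the 9 members in the 12 samples (points, coloured by condition), as reads + 1 on a log axis, with the floor of 3 reads as a dashed line. CASP4, CASP1, NLRP1 and NOD1 lie at 61 to 769 reads, and the other 5 members have at most 2 reads in any sample.

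Over the members tested, 0 of the 3 other than CASP1 were called in LEN against DMSO, where 0.649% of all genes were called, 0 of the 3 in AI-10-104 against DMSO (1.77% of all genes) and 0 of the 3 in LEN+AI-10-104 against LEN (1.68%). The median log2 fold change of the 3 members in LEN against DMSO was 0.15, and that of all genes was -0.00. With at most 4 members tested, these counts are too small to set against the shares over all genes. The interaction was called for none of the 3 members tested and for 0 of 11241 genes (0.0%) by limma, with 1621 genes at an unadjusted p under 0.05 and a lowest adjusted p of 0.155.

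The other genes of these pathways were followed with a list of 82 genes in 8 roles, and 44 of the 82 were abundant enough to be tested. The NOD signalling genes, which act downstream of the NOD proteins, were the best represented, with 16 of 16 tested. By contrast, 3 of 14 further inflammasome sensors were tested: NLRC5, which regulates MHC class I genes, at a mean of 7.09 RPKM, CARD8, a sensor related to NLRP1, at 2.69 RPKM, and the mitochondrial NLRX1 at 1.96 RPKM. NLRP3 had at most 1 read in a sample and AIM2, a sensor of cytosolic DNA, at most 6. NLRP2, NLRP7, NLRP12 and NAIP are listed at 0 in every sample. List genes at or near 0 are given as listed, for the reason given with GSDMD, and are not read as a lack of the transcript. Of the interleukin-1 family and its receptors 2 of 12 were tested, IL18BP, which neutralises interleukin-18, at 2.26 RPKM and the receptor chain IL1RAP at 1.26 RPKM. The cytokine genes IL1A and IL1B had at most 3 and 2 reads.

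Of these 44 genes, 1 rose with LEN and 1 with AI-10-104 against DMSO, 5 rose with both drugs against DMSO, 2 rose in LEN+AI-10-104 against AI-10-104 and 1 rose in LEN+AI-10-104 against LEN. None was called as lower in any of the 5 comparisons. The shares of all genes called as higher were 0.587%, 0.685%, 2.3%, 3.16% and 0.872% in that order, and those called as lower were 0.0623%, 1.09%, 0.641%, 0.471% and 0.81%. The median log2 fold change of the list was 0.03, 0.02, 0.06, 0.04 and 0.04, beside -0.00, 0.01, 0.02, 0.02 and 0.02 over all genes tested, so most of the list stayed close to the genes at large. The calls came from 5 genes, SLC15A4, CARD16, BIRC3, GSDMB and NINJ1.

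SLC15A4, a transporter of histidine and peptides that carries NOD ligands out of endolysosomes, was the only gene of the list called in LEN against DMSO. It was 18.3, 18.9 and 19.7 RPKM in DMSO and 24.5, 24.6 and 24.9 RPKM in LEN, with no overlap, as for 9.42% of the genes tested in this direction. The log2 fold change was 0.38 (SE 0.03, adjusted p = 0.00026). In AI-10-104 it was 18.9, 19.6 and 19.1 RPKM, inside the DMSO range, and with both drugs it was 25.8, 25.1 and 24.8 RPKM. It rose in LEN+AI-10-104 against AI-10-104 by 0.40 (adjusted p = 0.0002). SLC15A4 was higher in all 6 samples with LEN than in the 6 without, as for 2.25% of the genes tested.

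CARD16 encodes a short protein made of little more than a caspase-1-like CARD domain, and it binds caspase-1. Its values were 2.31, 1.99 and 2.19 RPKM in DMSO, 2.75, 2.95 and 2.80 RPKM in LEN, 2.22, 1.88 and 2.83 RPKM in AI-10-104 and 3.15, 2.85 and 3.05 RPKM with both drugs. AI-10-104 replicate 3 lay within the range of the LEN samples and the other AI-10-104 samples did not. CARD16 rose in LEN+AI-10-104 against DMSO by a log2 fold change of 0.46 (SE 0.12, adjusted p = 0.031) and against AI-10-104 by 0.39 (SE 0.12, adjusted p = 0.045). In LEN against DMSO its log2 fold change of 0.38 (adjusted p = 0.20) was not called. These groups did not overlap, as for 9.42% of the genes tested in this direction. Both calls were fragile: the one against AI-10-104 was lost in 11 of 12 cases when 1 sample was left out (adjusted p up to 0.13), and the one against DMSO was lost without DMSO replicate 2 or 3 or LEN+AI-10-104 replicate 1, 2 or 3 (adjusted p up to 0.12). Its relatives CARD17 and CARD18 had at most 2 reads and no reads in any sample.

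**Figure D4:**
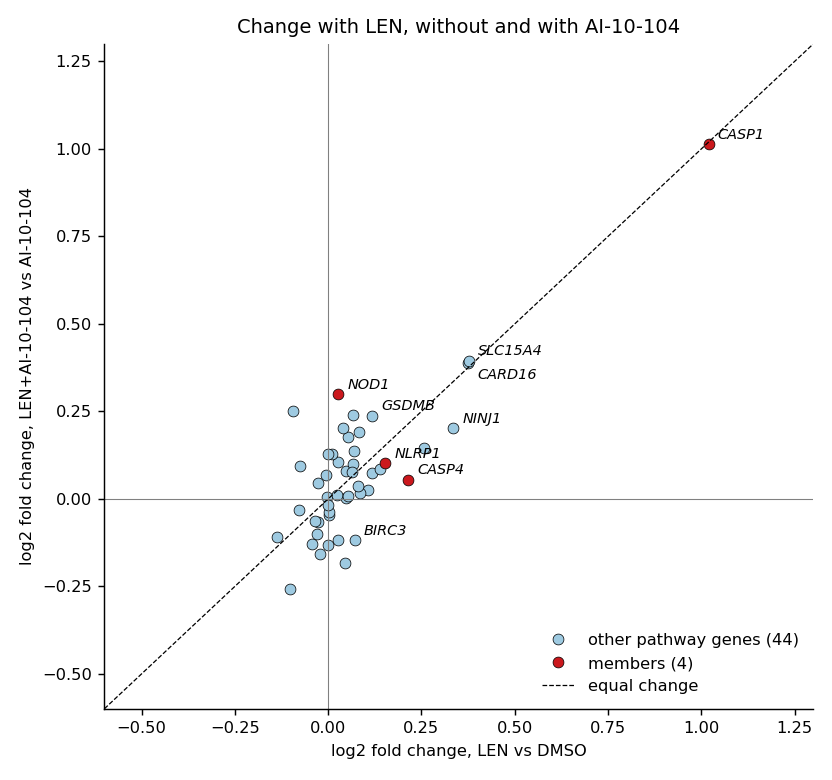
log2 fold change with LEN alone (x axis, LEN vs DMSO) against log2 fold change with LEN in the presence of AI-10-104 (y axis, LEN+AI-10-104 vs AI-10-104) for the 4 members tested (red) and 44 other genes of the pathway list (blue), with a dashed line of equal change. CASP1 is at 1.02 and 1.01, and it was picked for its value on the x axis, so its distance from the others there is no finding. SLC15A4 (0.38 and 0.40) and CARD16 (0.38 and 0.39) are the next along the line.

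BIRC3, a ubiquitin ligase (cIAP2) that acts in NOD and NF-κB signalling, was higher with AI-10-104. It was 60.1, 63.5 and 73.0 RPKM in DMSO, 70.9, 62.5 and 72.7 RPKM in LEN, 97.3, 88.3 and 101 RPKM in AI-10-104 and 88.3, 84.5 and 91.0 RPKM with both drugs. All 3 AI-10-104 samples were above all 3 DMSO samples, as for 13.1% of the genes tested. All 3 samples with both drugs were above all 3 LEN samples, as for 15.9% of the genes tested. The log2 fold change was 0.55 in AI-10-104 against DMSO (SE 0.08, adjusted p = 0.0023), 0.43 in LEN+AI-10-104 against DMSO (adjusted p = 0.0064) and 0.36 against LEN (adjusted p = 0.024). The last call was lost, with adjusted p up to 0.078, without LEN replicate 1 or 2 or LEN+AI-10-104 replicate 1, 2 or 3. The other 15 NOD signalling genes, RIPK2 among them, were not called in any comparison. Some missed only the fold threshold, in LEN+AI-10-104 against AI-10-104. RBCK1 (0.24, adjusted p = 0.013) and RNF31 (0.20, adjusted p = 0.019) were higher there. TAB2 (-0.18, adjusted p = 0.016) and ITCH (-0.13, adjusted p = 0.037) were lower.

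GSDMB and NINJ1 were the 2 tested genes of 5 in the role of other gasdermins and membrane rupture, and both rose in LEN+AI-10-104 against DMSO. GSDMB encodes a pore-forming relative of gasdermin D, and NINJ1 a membrane protein that ruptures the plasma membrane late in lytic cell death. GSDMB was 3.24, 3.21 and 3.65 RPKM in DMSO and 4.61, 4.19 and 4.83 RPKM with both drugs (log2 fold change 0.42, SE 0.07, adjusted p = 0.0053). The LEN samples (3.58 to 3.80 RPKM) and AI-10-104 samples (3.57 to 4.17 RPKM) overlapped the range of DMSO. In LEN+AI-10-104 against LEN, GSDMB missed only the fold threshold (log2 fold change 0.30, adjusted p = 0.039). These groups did not overlap, as for 15.9% of the genes tested in this direction. Against AI-10-104 the log2 fold change was 0.24 and was not called. NINJ1 was 1.69, 1.47 and 1.39 RPKM in DMSO and 2.62, 2.21 and 2.28 RPKM with both drugs, from 40 to 91 reads over all samples (log2 fold change 0.61, SE 0.13, adjusted p = 0.014). This call was lost without DMSO replicate 2 or 3 or LEN+AI-10-104 replicate 1 (adjusted p 0.053 to 0.059). NINJ1 was also above DMSO in the LEN samples (1.77 to 2.28 RPKM) and the AI-10-104 samples (1.72 to 2.28 RPKM). All 9 treated samples were above DMSO, as for 1.41% of the genes tested. The changes with LEN (0.34, adjusted p = 0.33) and with AI-10-104 (0.41, adjusted p = 0.09) were not called. Both single-drug ranges overlapped that with both drugs. For neither gene was the interaction called (adjusted p = 0.60 for GSDMB and 0.75 for NINJ1).

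**Figure D5:**
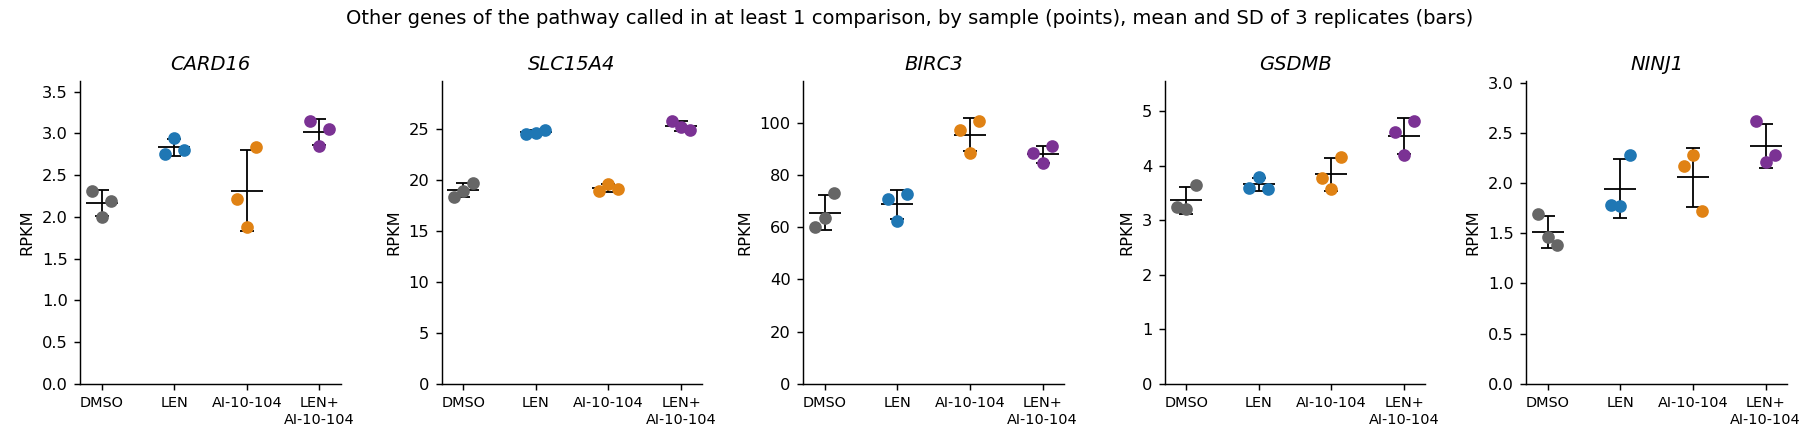
RPKM (y axis, from 0) of the 5 genes of the pathway list called in at least 1 comparison, in each sample (points), with the mean and SD of 3 replicates (bars). SLC15A4 separates the samples with LEN (24.5 to 25.8 RPKM) from those without (18.3 to 19.7 RPKM), as for 2.25% of the genes tested. BIRC3 was 88.3 to 101 RPKM in AI-10-104 and 60.1 to 73.0 RPKM in DMSO, with no overlap, as for 13.1% of the genes tested.

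No gene of the other roles was called in any comparison. These were the inflammasome regulators with 5 genes tested, the other caspases with 7, which include CASP8, an initiator of apoptosis, at a mean of 20.8 RPKM, and the 3 sensors and 2 interleukin-1 family genes given above.

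The 5 tested genes whose pattern over the 12 samples was most like that of CASP1, by Pearson correlation of log2 values, were PRKCB (r = 0.957), CLU (0.956), EIF2AK2 (0.954), ARPC2 (0.953) and ATP10D (0.951). They were chosen for this likeness, and the values share the 12 libraries. PRKCB, a protein kinase C, had a mean of 9.86 ± 0.172 RPKM in DMSO and 13.3 ± 1.25 RPKM in LEN, and of 8.90 ± 0.510 RPKM in AI-10-104 and 12.3 ± 0.717 RPKM with both drugs (SD, n = 3). CLU, the secreted chaperone clusterin, was 3.33 ± 0.353, 5.43 ± 0.322, 2.82 ± 0.174 and 4.42 ± 0.486 RPKM in the same order. EIF2AK2, the double-stranded RNA sensor PKR and a known interferon-induced gene, was 5.51 ± 0.0821, 6.58 ± 0.441, 5.58 ± 0.263 and 6.56 ± 0.254 RPKM. ARPC2, a subunit of the actin-nucleating Arp2/3 complex, was 176 ± 2.05, 193 ± 2.48, 173 ± 1.64 and 186 ± 0.934 RPKM. ATP10D, a lipid flippase, was 1.74 ± 0.187, 2.57 ± 0.135, 1.71 ± 0.144 and 2.35 ± 0.271 RPKM. Each was higher on average in both conditions with LEN than in both without.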

How the data were processed

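Poly(A) RNA of 12 OPM-1 samples, 3 for each of 4 conditions, was analysed. The authors used STAR and GRCh38, and the deposited values are RPKM beside gene lengths; FastQC, Cuffnorm and DESeq2 also stand in the submitters' processing notes, and the annotation and the strand setting of the counting are not given in the sources used here. In each sample RPKM times length in kilobases summed to 1000000 and 100% of values were whole multiples of 1 step (within 0.05 read), so reads were computed back from the deposited values. No measurement column was left unused. The members, the gene lists and the tests were chosen with earlier results of these data known.

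The 11241 genes averaging 0.5 RPKM or more entered limma 3.58.1 (R 4.3.3) as log2(RPKM + 0.1), with all 12 samples, 1 mean per condition, a variance trend and Benjamini-Hochberg adjustment over all genes tested. Calls took adjusted p up to 0.05 together with log2 fold changes of 0.32 or more in size, and for the interaction the adjusted p alone. The pseudocount makes the fold change of low genes smaller. Named were the 9 members, list genes called in at least 1 comparison, CARD16, CARD17, CARD18 and the 5 genes most correlated with CASP1. Other genes are named to describe a role or the neighbourhood of GSDMD. The floor of 3 reads covers counting error only. The labels do not say whether replicates were separate cultures, and the study's text describes them as biological replicates from independent experiments. Replicates differed by more than counting error (chi-square per degree of freedom 1.81 to 8.93). The fit was tested on simulated data. Alternatives were other pseudocounts (1 and 0.01), filters, scalings, variance models (limma's voom on the reads among them), thresholds, a replicate block and leaving out each sample. Genes were matched by symbol to GENCODE 44. Tables and figures used Python 3.11.15, numpy 2.4.6, pandas 2.3.3, scipy 1.17.1 and matplotlib 3.10.9.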

Additional observations from a re-analysis of the deposited data

How the results depend on the processing

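Depth limits the members under the floor, whose reads cannot show a difference between conditions, and the samples with both drugs had the lowest median depth. In LEN+AI-10-104 vs DMSO, NOD1 was the 1 member called in the fit as designed. CASP1 is not counted there, because its DMSO samples also picked it. The NOD1 call was lost with a pseudocount of 1, median-ratio rescaling, quantile normalization, the compared conditions only or any value above 0 tested. It was also lost in most cases when 1 sample was left out. In LEN+AI-10-104 vs AI-10-104 the 1 member called stayed CASP1 and became 1 to 2 with a sample left out, and in LEN+AI-10-104 vs LEN the number went from 0 to 1 (NOD1) with no variance trend. Pathway list calls in LEN+AI-10-104 vs DMSO were 5, 4 to 6 under the other alternatives (CARD16 was lost with any value above 0 and with quantile normalization, adjusted p up to 0.082) and 3 to 5 with a sample left out. In LEN+AI-10-104 vs AI-10-104 they were 2, 1 with a pseudocount of 1, any value above 0, quantile normalization, the compared conditions only or no variance trend, 7 with no fold change threshold, and 1 to 2 with a sample left out. In LEN+AI-10-104 vs LEN they were 1, 0 for any value above 0, 2 with no fold change threshold, and 0 to 1 with a sample left out. Sign changed for NOD1 in LEN vs DMSO, to -0.0023 with quantile normalization and over -0.0425 to 0.0729 with a sample left out, for NOD1 in AI-10-104 vs DMSO (-0.0177 to 0.0977) for the NLRP1 interaction (-0.1249 to 0.0042) and for the CASP1 interaction (-0.1383 to 0.2048, and -0.0461 to 0.0661 under the other alternatives), none of them called. CASP1 in LEN vs DMSO was 0.70 with a pseudocount of 1. The calls of SLC15A4, of GSDMB, and of BIRC3 against DMSO were kept under every alternative run. The causes were not tested. Over all genes, calls in LEN+AI-10-104 vs LEN were 98 up and 91 down, but 66 and 123 with quantile normalization and 71 and 109 with median-ratio rescaling. Replicates with the same number correlated at a mean r of 0.0522 in their deviations (18 pairs, -0.0272 to 0.155) and all 12 samples were most like their own number, a hint from the data only. The replicate block changed no call of a member or pathway gene. Fitting the recovered reads with voom gave the same numbers of member and list calls; over all genes it called 100 up and 4 down in LEN vs DMSO (66 and 7 as reported) and 382 up and 49 down in LEN+AI-10-104 vs AI-10-104 (355 and 53).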
